A study of Chlamydomonas reinhardtii with 45 samples.

Results

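The genes described here encode the hydrogenases of the green alga Chlamydomonas reinhardtii, the enzymes that assemble them, and enzymes of fermentative pyruvate breakdown. The HCP genes, which encode hybrid-cluster proteins, are grouped with them. They were taken by gene symbol from the table of mRNA levels, as HYDA1 or HYDA2, the HYDEF and HYDG assembly factors, PFL1, PFR1, ADH1 and the HCP genes. The rule found 11 genes of the 17609 in the table, HYDA1, HYDA2, HYDEF1, HYDG1, PFL1, PFR1, ADH1, HCP1, HCP2, HCP3 and HCP4, and it used no measured value. All 11 were above 0 in every library and passed the filter on low values, which kept 14602 genes.

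The cultures were wild-type strain CC-5390 (CC-4351, a cell-wall-deficient strain, rescued with the ARG7 gene), grown photoautotrophically in liquid photobioreactors on a 12 h light, 12 h dark cycle at 28 °C by day and 18 °C by night. The populations differed in the day-phase light, which was 50 PFD in low light (LL), 200 PFD in moderate light (ML, the control) and 1000 PFD in high light (HL), where PFD is the photon flux density. Poly(A) RNA was sequenced from 3 experimental replicates at each of 5 timepoints, named by hours from dawn, −2 and −10 in the dark (before dawn and after dusk) and +2, +6 and +10 in the light, which gave 15 groups and 45 libraries. LL cultures were first grown in ML and then kept in LL for 1 week or longer, all cultures shared 1 strain, and medium flow was stopped at the start of each experiment. Light and temperature changed together between day and night, and cell-cycle stage and culture density also changed through each experiment. The paper further names an endogenous circadian oscillator among the drivers of diurnal rhythms. The parts of these factors in any day against night difference cannot be told apart.

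Chlamydomonas can ferment in the light or the dark when oxygen is scarce. Pyruvate is then cleaved to acetyl-CoA, either with release of formate by pyruvate formate lyase or with reduction of ferredoxin by pyruvate:ferredoxin oxidoreductase, and the acetyl-CoA is turned into ethanol or acetate. Reduced ferredoxin passes electrons to the chloroplast [FeFe]-hydrogenases, which release hydrogen gas and are inactivated by oxygen. The cultures of this study were bubbled with ambient air by day and by night. Oxygen was not among the measurements used here.

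Levels are given as FPKM, fragment counts scaled to the length of the transcript and the size of the library. The files hold no read totals, but the spacing of low FPKM values gave a relative depth, set to 1 for replicate 1 of ML at −2. Replicate 1 of LL at −2 had a relative depth of 0.167, and the other 44 libraries lay between 0.584 and 1.36. Libraries listed between 13849 and 15802 genes above 0. A difference was called where its size exceeded 1 on the log2(FPKM + 1) scale and its adjusted p was below 0.01 in a single limma model of all 15 groups, with Benjamini-Hochberg adjustment over all 14602 genes. That scale understates fold changes of genes near or below 1 FPKM. How reads that match more than 1 of the related copies, HYDA1 and HYDA2 or the 4 HCP genes, were divided was not tested.

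In all 3 light levels the mRNAs of both hydrogenases, both assembly factors, PFL1, PFR1 and the 4 HCP genes were lower in the day than in the night, and ADH1 was the exception. The comparison asked how the mean over the 9 day libraries differed from the mean over the 6 night libraries of a light level. In ML 10 of 11 genes were called lower and 0 higher by limma, against 15.8% of all tested genes called lower and 19.0% called higher. At an unadjusted p below 0.05, where the share of all genes was not counted, all 11 had a negative difference of mean log values. These included ADH1, although its mean FPKM was higher by day. In LL 10 of 11 were called lower, against 12.1% of all genes, and in HL 10 of 11, against 12.9%. All genes called higher by day were 15.1% in LL and 18.0% in HL. The median difference over the 11 genes was −3.10 in ML, −3.78 in LL and −3.04 in HL on the log2(FPKM + 1) scale, beside medians over all tested genes of 0.13, 0.11 and 0.11. For the same 10 genes every day library lay below every night library of its light level, a separation found in 13.6% of all genes in ML, 12.5% in LL and 14.7% in HL. Less RNA per cell and fewer cells with the RNA cannot be told apart in these bulk samples.

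**Figure D1:**
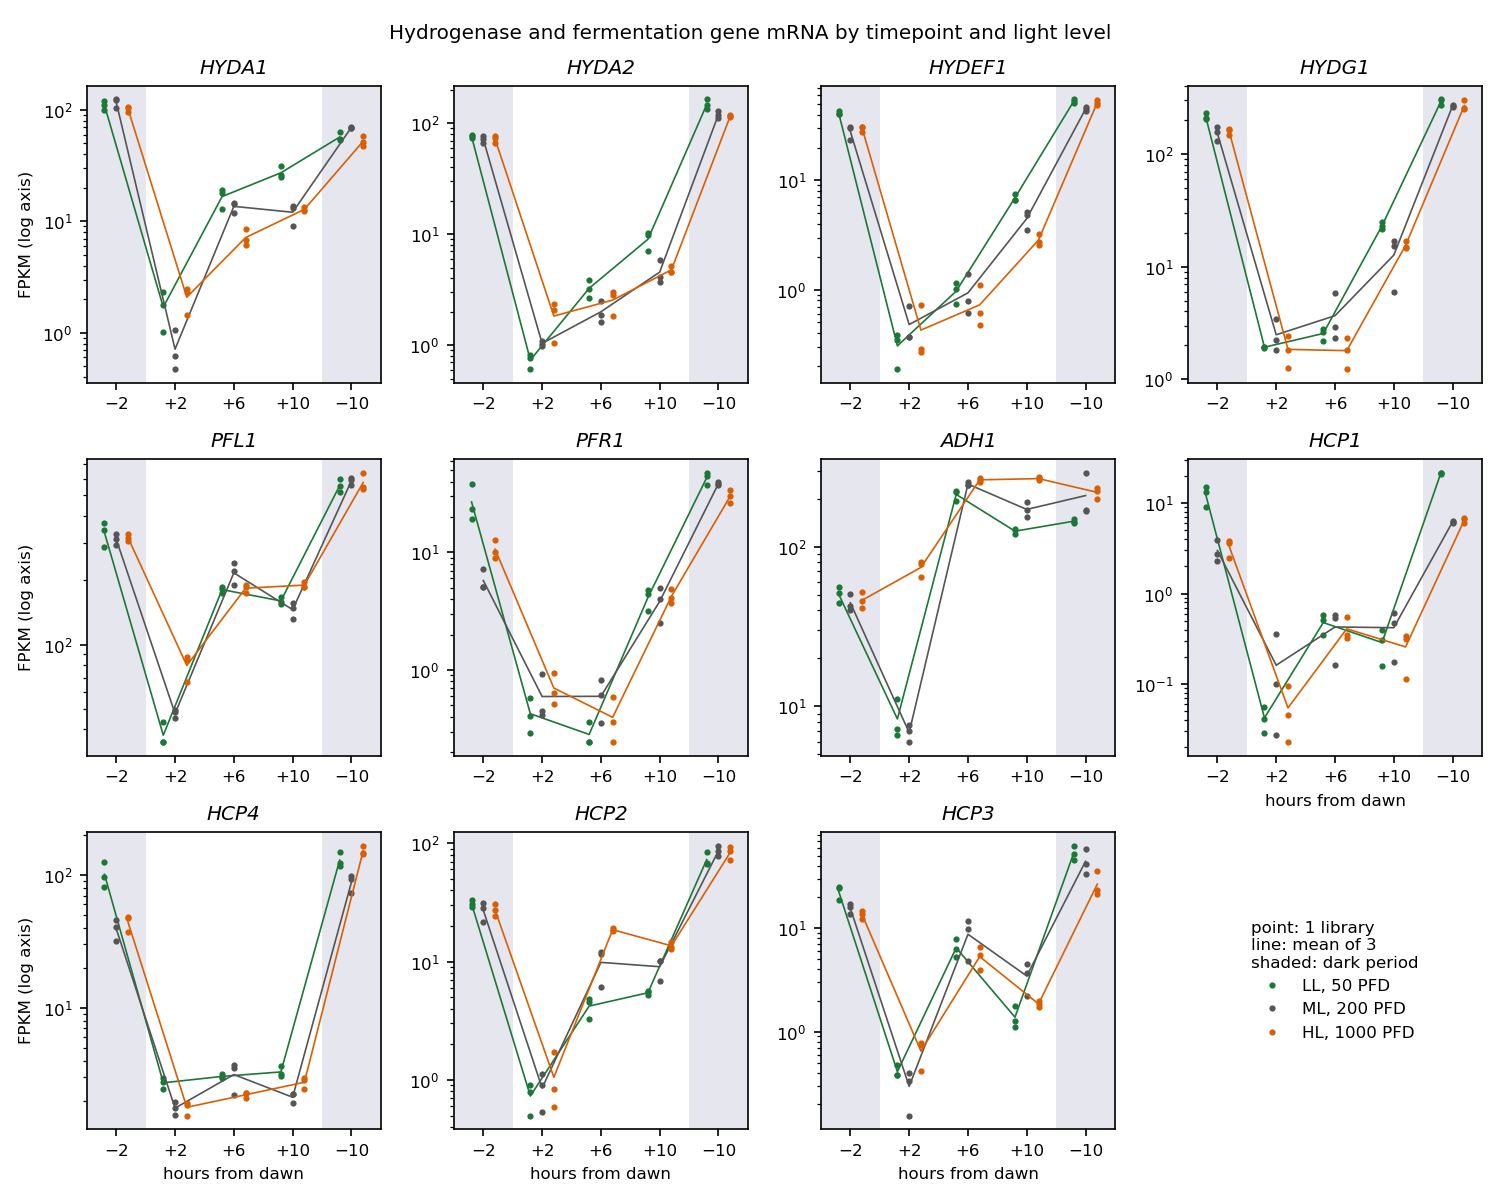
FPKM (log axis) of the 11 genes against hours from dawn, with 1 point per library, a line through the mean of 3 libraries, LL in green, ML in grey and HL in orange, and the dark period shaded. Levels of 10 genes were lowest in the light and highest in the dark, whereas ADH1 peaked at +6 or +10 and, in HL, did not show the low +2 level seen in LL and ML.

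HYDA1 encodes the main hydrogenase studied in this alga. In ML its mRNA stood at 122, 105 and 124 FPKM before dawn (−2) and dropped to 0.471, 1.05 and 0.615 FPKM in the +2 libraries. Later in the day it was 14.2, 14.7 and 11.9 FPKM (+6), then 13.2, 13.8 and 9.08 FPKM (+10). After dusk (−10) the libraries held 70.2, 69.3 and 69.3 FPKM. The order of the ML levels was therefore −2, −10, +6, +10 and +2, in which only the +6 and +10 libraries overlapped. In LL and HL the +10 level exceeded the +6 level, and no libraries of different timepoints overlapped. The mean night level was 10.6-fold above the mean day level in ML, 5.49-fold in LL and 10.5-fold in HL. On the log2(FPKM + 1) scale day minus night was −3.74 ± 0.10 (SE, adjusted p = 8.02e-27) in ML, −2.88 ± 0.10 in LL and −3.41 ± 0.10 in HL.

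HYDA2, the second hydrogenase gene, reached its highest level after dusk instead. In ML it was 118, 130 and 113 FPKM at −10 and 77.6, 66.5 and 71.5 FPKM at −2. Its +2 libraries gave 1.03, 0.989 and 1.09 FPKM, followed by 2.50, 1.88 and 1.62 FPKM (+6) and 4.13, 3.73 and 5.82 FPKM (+10). Night libraries all lay above day libraries, and the +2 libraries were the lowest. Its difference between day and night was −4.87 ± 0.10 in ML (adjusted p = 5.65e-31), −4.68 ± 0.10 in LL and −4.60 ± 0.10 in HL. The ratio of HYDA1 to HYDA2, both in FPKM, turned over between the timepoints. It was 1.63 ± 0.09 (SD, n = 3) at −2 in ML, 6.95 ± 1.11 at +6 and 0.58 ± 0.04 at −10, and at +2 it was 0.69 ± 0.32, which overlapped −10. Mean ratios were also highest at +6 and lowest at −10 in LL (5.26 ± 1.66 and 0.39 ± 0.01) and in HL (2.87 ± 0.54 and 0.45 ± 0.05), although in HL the +6 and +10 libraries overlapped.

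HYDEF1 and HYDG1 encode the radical SAM proteins that build the iron-sulfur active site of the hydrogenase, and in the RefSeq v5.5 annotation they are direct neighbours on chromosome 6. HYDG1 in ML was 156, 131 and 173 FPKM before dawn (−2) and 270, 262 and 275 FPKM after dusk (−10). By day it was 1.80, 3.41 and 2.23 FPKM (+2), 2.90, 5.78 and 2.32 FPKM (+6), then 15.3, 16.8 and 5.91 FPKM (+10). HYDEF1 was less abundant in the same dark libraries, with 30.0, 23.6 and 30.7 FPKM (−2), then 45.1, 43.1 and 46.9 FPKM (−10). Its day libraries held 0.368, 0.701 and 0.369 FPKM (+2), 0.614, 1.40 and 0.782 FPKM (+6), then 5.10, 4.80 and 3.51 FPKM (+10). Both genes were highest at −10, lower at −2, and were already above their +6 libraries at +10. On the log2(FPKM + 1) scale HYDG1 had the largest day minus night difference of the 11 genes in each light level, −5.14 ± 0.15 in ML, −5.33 ± 0.15 in LL and −5.37 ± 0.15 in HL. The order depended on the scale, since night over day in mean FPKM was 33.7-fold for HYDG1 in ML against 38.0-fold for HYDA2, 27.7-fold in LL against 63.0-fold for HCP1, and 33.7-fold in HL against 43.5-fold for HCP4. For HYDEF1 the log2 difference was −3.88 ± 0.09, −4.14 ± 0.09 and −4.27 ± 0.09. At −2 and −10 the HYDG1 level was between 5.19 and 5.98 times that of HYDEF1 in mean ratio in every light level.

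PFL1 encodes pyruvate formate lyase, and it was the most abundant of the 11 mRNAs in the dark. In ML it was 314, 292 and 328 FPKM before dawn (−2), dropped to 49.1, 45.3 and 48.1 FPKM (+2), and reached 562, 591 and 604 FPKM after dusk (−10). Between them lay 240, 220 and 190 FPKM (+6), then 157, 149 and 131 FPKM (+10). Its lowest group was +2 and its highest −10 in all 3 light levels, and its range was the narrowest of the 10 genes called lower in the day, 12.3-fold between group means in ML, 14.8-fold in LL and 7.21-fold in HL. Day minus night was −1.89 ± 0.06 in ML, −2.05 ± 0.06 in LL and −1.60 ± 0.06 in HL. PFL1 exceeded HYDA1 by 2.67 ± 0.11 (SD, n = 3) times at −2 in ML and by 75.2 ± 30.6 times at +2.

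PFR1 encodes pyruvate:ferredoxin oxidoreductase. In ML it was 40.0, 37.8 and 37.6 FPKM at −10 but 7.19, 5.07 and 5.03 FPKM at −2, and during the day it was 0.412, 0.922 and 0.452 FPKM (+2), 0.617, 0.823 and 0.353 FPKM (+6), then 4.96, 4.01 and 2.52 FPKM (+10). The highest day library, at 4.96 FPKM, was thus barely below the lowest night library, at 5.03. The differences were −2.83 ± 0.12 in ML, −4.03 ± 0.12 in LL and −3.04 ± 0.12 in HL.

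ADH1 encodes the bifunctional alcohol and acetaldehyde dehydrogenase that makes ethanol from acetyl-CoA, and its mRNA followed a different course. In ML it was 42.5, 40.3 and 50.8 FPKM before dawn (−2) and 7.00, 7.58 and 5.93 FPKM in the +2 libraries. It then stood at 256, 244 and 243 FPKM (+6), 191, 169 and 154 FPKM (+10), and 167, 170 and 292 FPKM after dusk (−10). Day and night libraries overlapped in every light level. The highest group was +6 in LL and ML and +10 in HL. On the log2(FPKM + 1) scale day minus night was −0.47 ± 0.10 in ML, −0.46 ± 0.10 in LL and 0.78 ± 0.10 in HL for ADH1, and none passed the fold threshold. Mean FPKM was higher by day in all 3, at 142 by day and 127 by night in ML, 116 and 97.6 in LL, and 202 and 133 in HL, so that the direction in ML and LL depended on whether logs or FPKM were averaged. Replicate 3 of ML at −10, at 292 FPKM, stood apart from the other 2 libraries, and leaving it out changed no ADH1 call.

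The HCP genes encode hybrid-cluster proteins, iron-sulfur proteins known in bacteria for reactions with hydroxylamine and nitric oxide. HCP2 and HCP3 are direct neighbours on chromosome 9 in RefSeq v5.5, and HCP1 and HCP4 lie on the same chromosome. HCP4 in ML was 97.9, 73.5 and 93.1 FPKM (−10), then 45.6, 31.6 and 40.8 FPKM (−2), against 1.56 to 3.74 FPKM in the 9 day libraries. HCP2 in ML was 85.5, 78.7 and 94.9 FPKM after dusk (−10), which overlapped HCP4, and 28.5, 21.7 and 31.2 FPKM before dawn (−2), all below HCP4. For HCP3 these were 58.1, 41.3 and 33.5 FPKM (−10), then 17.1, 15.9 and 13.7 FPKM (−2). HCP1 was the least abundant, with 6.09, 6.41 and 6.19 FPKM (−10), then 3.93, 2.74 and 2.31 FPKM (−2), and less than 1 FPKM in all day libraries of all light levels. In ML the day minus night differences were −4.18 ± 0.09 for HCP4, −3.10 ± 0.12 for HCP2, −2.86 ± 0.14 for HCP3 and −2.02 ± 0.10 for HCP1. In LL they were −4.83 ± 0.09, −3.65 ± 0.12, −3.62 ± 0.14 and −3.78 ± 0.10, and in HL −4.68 ± 0.09, −2.55 ± 0.12, −2.68 ± 0.14 and −2.21 ± 0.10. The HCP1 values depended on the pseudocount and became −4.06 in ML, −6.42 in LL and −4.70 in HL with a pseudocount of 0.01.

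**Figure D2:**
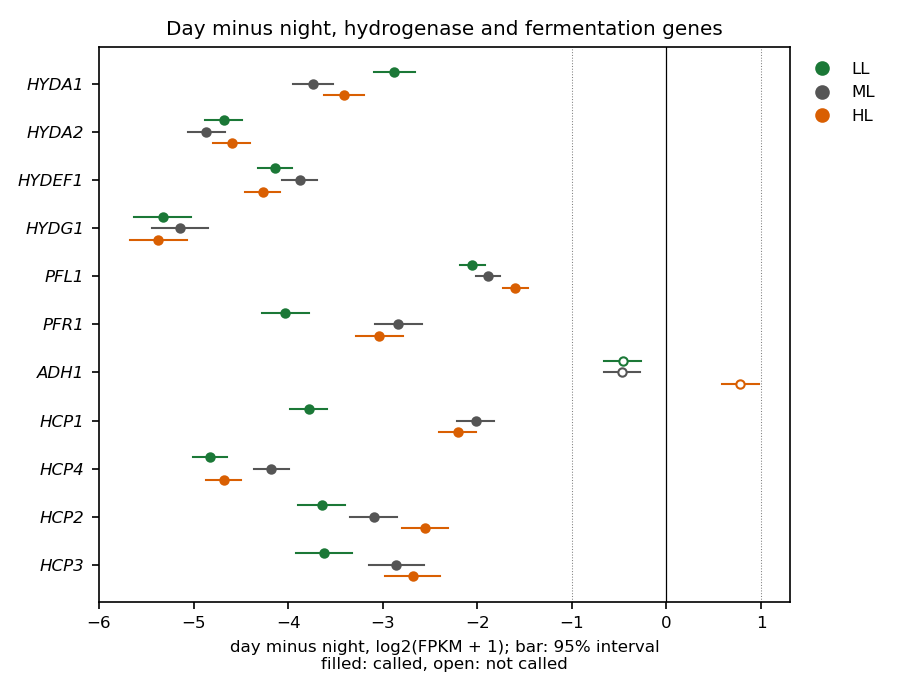
Day minus night difference in log2(FPKM + 1) for each gene and light level, with bars for the 95% interval and filled points for called differences. The 10 genes other than ADH1 lie between −5.37 and −1.60, and the ADH1 values lie between −0.47 and 0.78.

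The steps between consecutive timepoints showed when the levels moved. From −2 to +2, across dawn, all 11 genes fell in ML and in LL, against 18.7% and 14.7% of all genes called lower, and 10 of 11 fell in HL, against 15.3%. HYDA1 had a difference of −6.12 ± 0.16 in ML, −5.39 ± 0.16 in LL and −5.08 ± 0.16 in HL, and HYDG1 of −5.49 ± 0.23, −6.21 ± 0.23 and −5.84 ± 0.23. ADH1 fell by 2.54 in ML and by 2.49 in LL, while in HL its difference was 0.67 ± 0.15, below the fold threshold. Across dusk, from +10 to −10, the 10 genes other than ADH1 rose in all 3 light levels, against 17.1% of all genes called higher in ML, 9.73% in LL and 13.5% in HL. HCP4 rose by 4.82 ± 0.14 in ML, 4.92 ± 0.14 in LL and 5.34 ± 0.14 in HL. HYDA1 rose by 2.46 ± 0.16 in ML, 1.04 ± 0.16 in LL and 1.94 ± 0.16 in HL, and ADH1 did not pass the test in any of them.

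Within the day, some of the genes rose between +2 and +6 and others between +6 and +10. From +2 to +6 HYDA1, PFL1, ADH1, HCP2 and HCP3 rose in every light level, and HYDA2 rose in LL. These are 5 of 11 genes in ML, against 15.3% of all genes called higher, 6 of 11 in LL, against 10.2%, and 5 of 11 in HL, against 9.92%. ADH1 had the largest differences, 4.99 ± 0.15 in ML and 4.55 ± 0.15 in LL, and HYDA1 rose by 3.10 ± 0.16 in ML, 2.72 ± 0.16 in LL and 1.41 ± 0.16 in HL. HYDEF1, HYDG1, PFR1, HCP1 and HCP4 did not pass the test in this interval, although with a pseudocount of 0.1 HCP1 and HYDEF1 were called higher in LL. Alternatives were listed only for estimates with an adjusted p below 0.01, which left out HCP1 in ML and HL. In HL the HCP1 libraries held 0.0455, 0.0957 and 0.0227 FPKM (+2), then 0.320, 0.554 and 0.353 FPKM (+6).

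From +6 to +10 HYDG1, HYDEF1 and PFR1 rose in every light level, HYDA2 rose in LL, and HCP3 was called lower in every light level. Genes called higher were 3 of 11 in ML, against 17.1% of all genes, 4 of 11 in LL, against 13.0%, and 3 of 11 in HL, against 16.6%. The 1 gene called lower compared with 11.2%, 6.16% and 12.3% of all genes. HYDA2 in ML had a difference of 0.88 and was called with a pseudocount of 0.1 or 0.01 and without replicate 1. HYDG1 rose by 1.50 ± 0.23 in ML, 2.77 ± 0.23 in LL and 2.58 ± 0.23 in HL. The HCP3 difference was −1.09 ± 0.22 in ML, −1.64 ± 0.22 in LL and −1.12 ± 0.22 in HL. In ML it was −0.87 and not called without replicate 3 at +10, and without replicate 2 throughout it was −0.92 in ML and −0.98 in HL and called in neither.

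Between the dark timepoints, taken as −2 minus −10, HYDA1 was the only one of the 11 genes with a positive difference in any light level. The paper started each experiment at nightfall and lists −2 first and −10 last. Sampling at −2 therefore probably preceded −10 by a day of growth, and this comparison is not a course through a single night. The difference was 0.74 ± 0.16 in ML (adjusted p = 0.000203), 0.94 ± 0.16 in LL (adjusted p = 7.44e-06) and 0.96 ± 0.16 in HL (adjusted p = 5.35e-06), so that the adjusted p passed and the fold did not, except in HL without replicate 1 (1.02) and with quantile normalization (1.08). The −2 libraries of HYDA1 lay above the −10 libraries in each light level. For HYDA2 the difference was −0.74 ± 0.15, −0.94 ± 0.15 and −0.68 ± 0.15, also below the fold threshold. Called lower were 5 of 11 genes in ML (PFR1, ADH1, HCP2, HCP3 and HCP4), against 7.27% of all genes, 3 of 11 in LL (ADH1, HCP2 and HCP3), against 7.17%, and 4 of 11 in HL (PFR1, ADH1, HCP2 and HCP4), against 7.63%. PFR1 was lower at −2 than at −10 by 2.56 in ML and by 1.42 in HL.

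**Figure D3:**
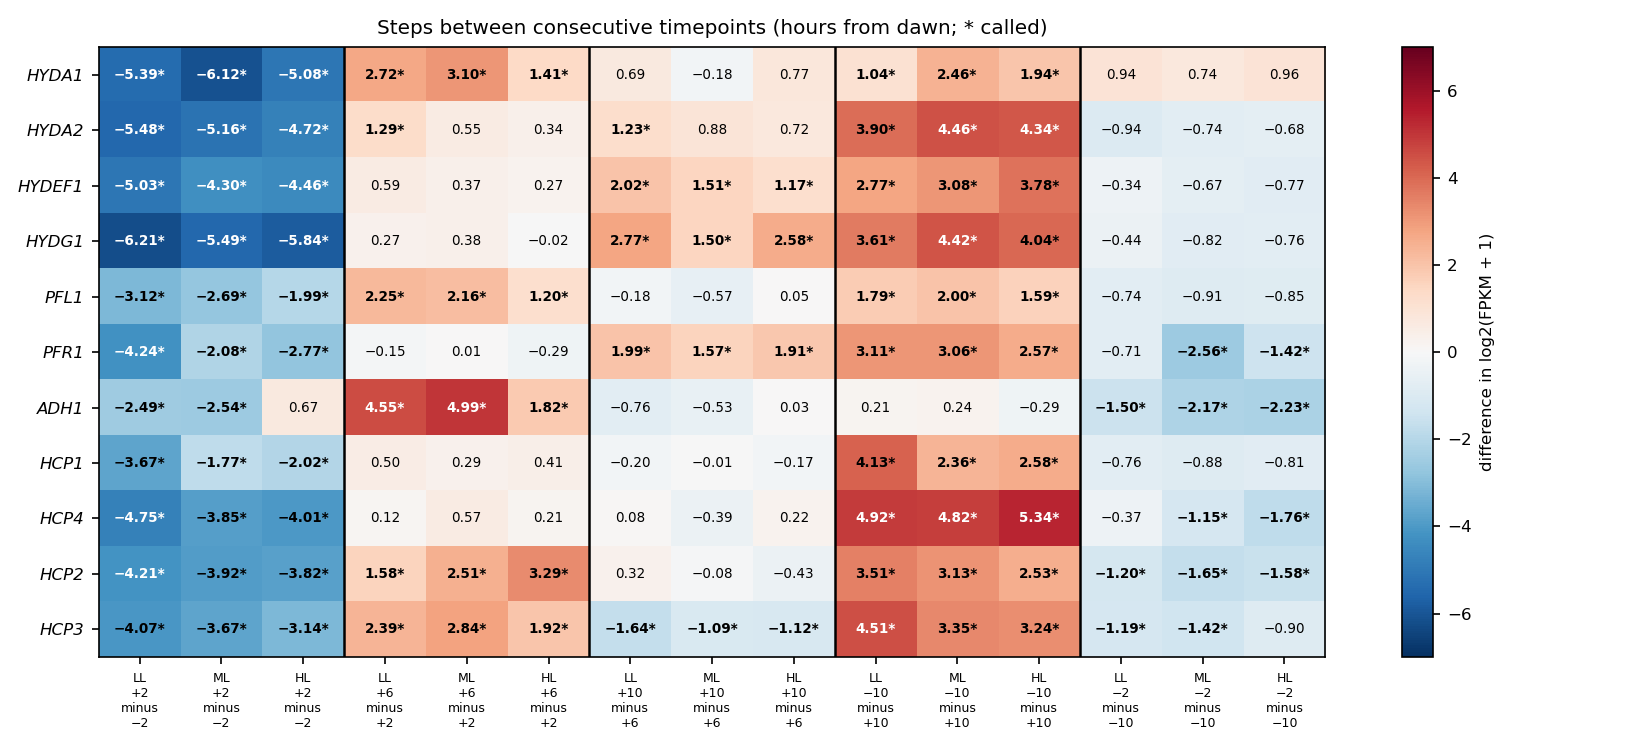
Differences in log2(FPKM + 1) between consecutive timepoints for the 11 genes (rows) in LL, ML and HL (columns), where −2 is taken as the timepoint after −10 and an asterisk marks a called difference. Within an experiment −2 was probably sampled before −10, in the preceding night. The first block, across dawn, is negative except ADH1 in HL, the fourth block, across dusk, is positive except ADH1 in HL, and HYDA1 is the only row above 0 in the last block.

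Low light was compared with ML at each timepoint to ask how day-phase light intensity related to these levels. The authors report that the LL population was less synchronous than ML. They attribute its many mRNA differences at least in part to this. The part of synchrony in the LL differences below was not tested. PFR1, HCP1 and HCP4 were higher in LL than in ML at the end of the night. Over the 5 timepoints the 11 genes gave 6 calls in 55 comparisons, against 4.83% of all genes and timepoints. At −2, 3 of 11 genes were called higher, against 1.62% of all genes. PFR1 was 37.8, 23.4 and 19.3 FPKM in LL against 7.19, 5.07 and 5.03 in ML, a difference of 2.00 ± 0.19 (adjusted p = 7.24e-10). HCP1 was 15.1, 13.3 and 9.12 FPKM against 3.93, 2.74 and 2.31, a difference of 1.75 ± 0.15 (adjusted p = 7.19e-11). HCP4 was 125, 95.8 and 81.8 FPKM against 45.6, 31.6 and 40.8, a difference of 1.33 ± 0.14 (adjusted p = 9.76e-09). The LL and ML libraries did not overlap for any of the 3 genes, and at −2 they did not overlap for 6 of the 11 genes. For overlap between light levels, here and below, no share of all genes is given, so it serves as description only. The highest LL value of each came from the shallow replicate 1, and without it the differences were 1.73, 1.61 and 1.17 and all 3 calls stood.

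At −10 HCP1 was the only gene called higher in LL, against 2.85% of all genes. It was 21.6, 21.2 and 21.7 FPKM in LL and 6.09, 6.41 and 6.19 in ML, a 3.45-fold difference in mean FPKM with a spread far smaller than the gap (1.64 ± 0.15, adjusted p = 8.72e-11), although with a pseudocount of 0.01 it was not called. PFR1 at −10 was 47.5, 37.7 and 44.2 FPKM in LL, which overlapped its ML libraries. At +6 HCP2 was called lower in LL, against 1.92% of all genes, at 4.81, 3.25 and 4.56 FPKM in LL and 12.0, 11.5 and 6.08 in ML. That difference of −1.02 ± 0.19 (adjusted p = 5.39e-05) was close to the fold threshold, and it was −0.95 without replicate 1 and −0.75 without replicate 2, and it was called in neither of these nor with quantile normalization. At +10 HYDA1 was called higher, against 3.57% of all genes, at 25.8, 24.8 and 31.1 FPKM in LL and 13.2, 13.8 and 9.08 in ML. The difference of 1.13 ± 0.16 (adjusted p = 9.71e-07) became 0.95 and was not called without replicate 3 of ML at +10, which had the lowest HYDA1 value, and 0.86 without replicate 3 throughout. In the same timepoint HYDA2 and HYDG1 differed by 0.85 ± 0.15 and 0.93 ± 0.23, below the fold threshold, though HYDA2 was called without replicate 3 of ML at +10 (1.01) and HYDG1 without replicate 2 (1.23), with quantile normalization (1.07) and with a pseudocount of 0.01 (1.00). HCP3 and HCP2 had differences of the opposite sign at +10. HCP3 was 1.26, 1.12 and 1.76 FPKM in LL and 4.47, 3.70 and 2.19 in ML, with no overlap (−0.88 ± 0.22, adjusted p = 0.00177), and it was called with a pseudocount of 0.1 (−1.23) or 0.01 (−1.28), without replicate 3 (−1.21) and without replicate 3 of ML at +10 (−1.10). HCP2 was 5.60, 5.54 and 5.22 FPKM in LL and 10.1, 10.2 and 6.85 in ML, also with no overlap (−0.62 ± 0.19, adjusted p = 0.00705). At +2, limma called 0 genes, against 7.51% of all genes called in either direction. There 3 genes had an unadjusted p below 0.05, a looser threshold at which the share of all genes was not counted. HYDA1 had the largest difference at +2 (0.64 ± 0.16, adjusted p = 0.00157). It became 1.14 with a pseudocount of 0.1 and 1.24 with 0.01 and was then called.

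High light gave 1 call in 55 comparisons with ML, against 2.65% of all genes and timepoints, and it was ADH1 at +2. ADH1 was 77.9, 80.0 and 64.8 FPKM in HL, 7.00, 7.58 and 5.93 in ML and 11.1, 7.20 and 6.62 in LL. The HL mean was 10.9-fold above the ML mean, and the lowest HL library was above every ML and LL library. The HL minus ML difference was 3.26 ± 0.15 (adjusted p = 3.43e-18), in a comparison where 4.51% of all genes were called higher. The LL minus ML difference was 0.22 ± 0.15 at the same timepoint. LL and HL were compared with the same ML libraries, so their differences are not independent.

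Further HL differences at +2 remained below the fold threshold. PFL1 was 87.7, 85.0 and 66.6 FPKM in HL against 49.1, 45.3 and 48.1 in ML, with no overlap (0.73 ± 0.10, adjusted p = 2.02e-07). HYDA1 was 2.32, 2.48 and 1.45 FPKM in HL against 0.471, 1.05 and 0.615 in ML, also with no overlap (0.85 ± 0.16, adjusted p = 6.74e-05). At these low levels the HYDA1 difference depended on the pseudocount, and it was 1.46 with a pseudocount of 0.1 and was then called. At +6 HYDA1 was lower in HL by 0.85 (−0.85 ± 0.16), with 6.82, 8.53 and 6.06 FPKM, and HCP2 had a difference of 0.90 ± 0.19, with 18.6, 18.1 and 19.1 FPKM, and was called without replicate 1 (1.06) or without replicate 2 (1.05). HCP2 at +6 thus had group means of 4.20 FPKM in LL, 9.85 in ML and 18.6 in HL, with no overlap between the libraries of the 3 populations. At −2, −10, +6 and +10 limma called 0 genes in HL, against 0.507%, 1.08%, 2.01% and 3.68% of all genes called in either direction. At an unadjusted p below 0.05 there were 1, 3, 6 and 5 genes. The share of all genes at that looser threshold was not counted. At −2 PFR1 had the smallest adjusted p (0.79 ± 0.19, adjusted p = 0.0138). At −10 HCP4 was 165, 144 and 146 FPKM in HL against 97.9, 73.5 and 93.1 in ML, with no overlap. Its difference of 0.79 ± 0.14 (adjusted p = 0.00013) was below the fold threshold. The LL minus ML difference of HCP4 at −10 was 0.55 ± 0.14, also below that threshold.

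**Figure D4:**
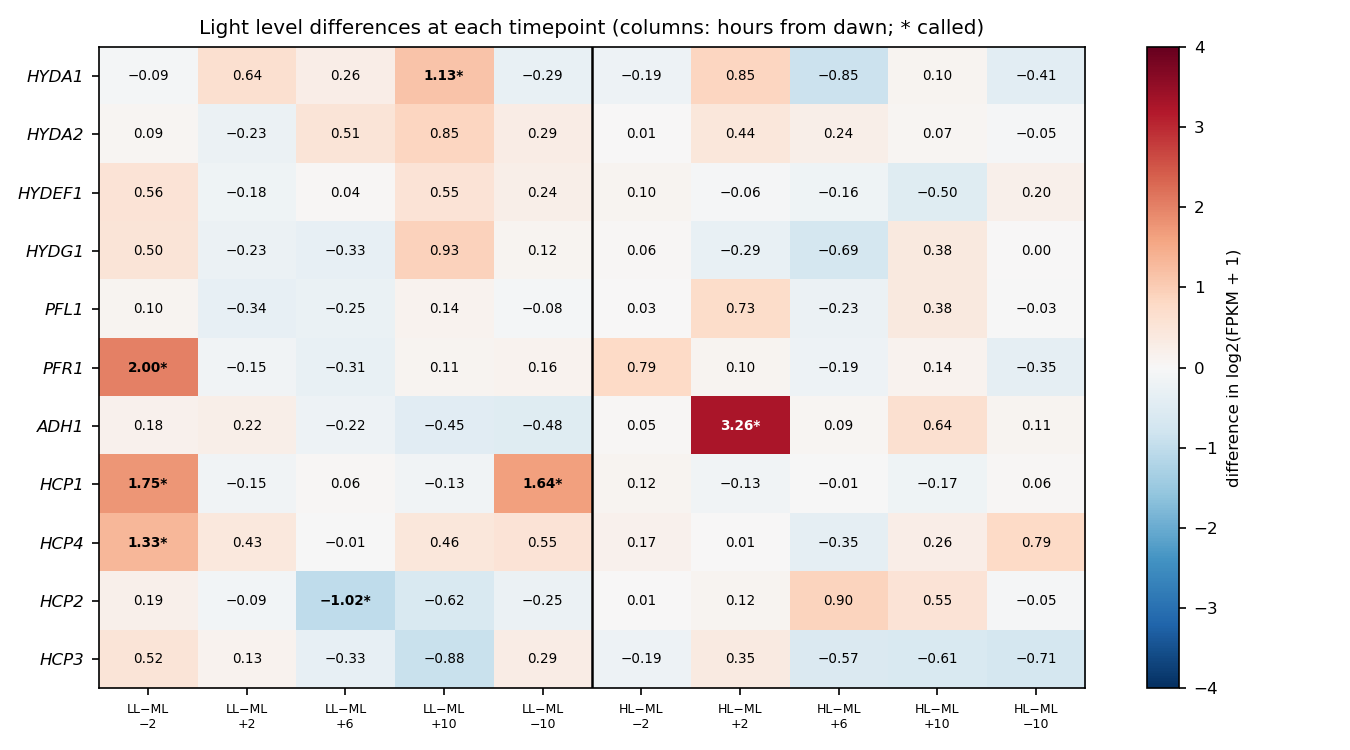
Differences in log2(FPKM + 1) between LL and ML (left) and between HL and ML (right) at each timepoint for the 11 genes, with an asterisk at called differences. The LL calls lie in PFR1, HCP1, HCP4, HCP2 and HYDA1, and the single HL call is ADH1 at +2, at 3.26.

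The day minus night difference itself was compared between light levels with an interaction term. In LL it was more negative than in ML for HCP1 (−1.77 ± 0.14, adjusted p = 3.34e-12) and PFR1 (−1.20 ± 0.17, adjusted p = 1.31e-06), 2 of 11 genes, against 1.23% of all genes called lower. HYDA1 had an opposite difference of 0.86 ± 0.15 (adjusted p = 2.22e-05), below the fold threshold, and it was called with a pseudocount of 0.1 (1.06) or 0.01 (1.10) and without replicate 2 (1.02). In HL it was higher than in ML for ADH1 (1.25 ± 0.14, adjusted p = 1.3e-08), 1 of 11 genes, against 2.02% of all genes called higher. For HYDA2 the interaction was 0.18 ± 0.14 in LL and 0.27 ± 0.14 in HL, with 95% intervals of −0.09 to 0.46 and −0.01 to 0.55.

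A list of fermentation partners had a smaller median difference than the 11 genes. Of 10 genes listed as fermentation partners, 3 were called lower in the day in each light level, PDC3 (pyruvate decarboxylase), PAT2 (phosphate acetyltransferase) and ACK1 (acetate kinase), against 15.8% of all genes in ML, 12.1% in LL and 12.9% in HL. DLD2 was called higher in all 3 and LDH1 (D-lactate dehydrogenase) in HL, against 19.0%, 15.1% and 18.0% in ML, LL and HL. DLD1 and DLD2 entered the list by symbol and are described as dihydrolipoamide dehydrogenases, which are not fermentative enzymes. The median day minus night difference of the list was −0.69 in ML, −0.61 in LL and −0.55 in HL, beside 0.13, 0.11 and 0.11 over all genes. PAT2 and ACK1 differed by −1.92 ± 0.08 and −1.84 ± 0.10 in ML, whereas their second copies PAT1 and ACK2 differed by −0.78 ± 0.07 and 0.42 ± 0.08 and were not called. PAT2 is the direct neighbour of HYDA2 in RefSeq v5.5. PFLA1, which activates pyruvate formate lyase, differed by −0.59 ± 0.06 in ML. In HL at +2, where ADH1 was higher, PDC3 (1.28 ± 0.17) and PAT2 (1.05 ± 0.13) were also called higher than in ML. These were 2 of 10 genes, against 4.51% of all genes called higher.

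Ferredoxins carry electrons to hydrogenase. Of the ferredoxin list, 12 of 13 genes were tested, since FDX2 did not pass the filter. In ML 5 were called higher in the day (FDX3, FDX4, FDX5, FDX6 and the reductase FNR1) and 2 lower (FDX9 and FDX12), against 19.0% and 15.8% of all genes, with a list median of 0.84. In LL the counts were 5 and 1, against 15.1% and 12.1%, and in HL 5 and 2, against 18.0% and 12.9%. FDX1, the main photosynthetic ferredoxin, was at 4033 ± 85.1 FPKM (SD, n = 3) at +2 in ML and its day minus night difference of 0.60 ± 0.07 was not called. FDX9 had the most negative difference of the list on the log2(FPKM + 1) scale, at −2.27 ± 0.14 in ML, −2.15 ± 0.14 in LL and −2.14 ± 0.14 in HL.

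Of 7 genes of pyruvate dehydrogenase and its kinases, which feed pyruvate to respiration or lipid synthesis, 2 were called higher in the day in ML and LL, the subunits PDC2 and PDH2, against 19.0% and 15.1% of all genes. In HL PDH1 was called higher, against 18.0%, and the kinases PDK1 and PDK2 lower, against 12.9%. The list medians were 0.75, 0.76 and 0.65. Of 7 genes linked to copper deficiency and hypoxia, several of them targets of the regulator CRR1, 6 were called higher in the day in every light level, against 19.0% of all genes in ML, 15.1% in LL and 18.0% in HL, and CRR1 itself was not called. FDX5 is in this list and in the ferredoxin list. Medians were 2.45 in ML, 2.81 in LL and 2.09 in HL. CYC6, cytochrome c6, differed by 6.74 ± 0.25 in ML, and CPX1 by 3.38 ± 0.12, the opposite direction to HYDA1 and PFL1.

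The likeness of the 11 profiles was described by Pearson's r of log2(FPKM + 1) over the 15 group means, which share the light and dark schedule. HYDG1 and HYDEF1 were the most alike pair (r = 0.996), and HYDA2 followed both of them (0.984 and 0.989) more closely than it followed HYDA1 (0.902). PFL1 was most like HCP2 (0.962), and PFR1 was most like HYDG1 (0.961). ADH1 was least like the rest, with r between 0.104 with HCP4 and 0.622 with PFL1. Among other genes with a symbol, the 5 most like HYDA1 were FDX9 (0.963), FAP111 (0.951), MOT30 (0.949), SDH1 (0.947), a succinate dehydrogenase subunit, and CNG1 (0.946). The 5 most like PFL1 were CAX1 (0.971), SMY2 (0.970), GFY2 (0.967), annotated as a putative acetate transporter, SULTR3 (0.967) and CAH7 (0.963).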

How the data were processed

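Chlamydomonas mRNA was measured in 45 libraries. The authors aligned reads with STAR 2.4.0j to the CC-4532 assembly and deposited FPKM values per replicate from Cuffdiff 2.0.2, counted with strand. A second deposited table of group means was not used. Here genes with at least 1 FPKM in at least 3 libraries were tested on log2(FPKM + 1) with limma 3.58.1 in R 4.3.3 (15 groups in 1 model, trend in the variance, Benjamini-Hochberg adjustment within each of 30 comparisons). Count tests were not used, because the values are FPKM. Depth per library is known only in relative terms, and no intervals on counts are given. Replicates are separate cultures of 1 strain. The authors followed culture density through each experiment, so the timepoints of a replicate number within a light level probably share a culture. The main fit took all libraries as independent and did not pair them. Same-numbered deviations correlated between −0.03 and 0.15 for day with night and between −0.06 and 0.33 for LL or HL with ML, where all 3 pairs exceeded 0.1 in 1 of 10 comparisons (LL at −10). Fits with a replicate block are alternatives. The members, lists and tests were chosen with earlier results of these data known. Named genes are the 11 members, the members of 4 lists (fermentation partners, ferredoxins, pyruvate dehydrogenase, copper and hypoxia response), and the 5 genes most like HYDA1 and PFL1. Annotation neighbours come from RefSeq v5.5, in which all 11 genes matched, and no coordinates are given because the files use another assembly. The limma script was tested on simulated data. Alternatives changed the pseudocount, filter, variance trend, scaling, thresholds, replicate block and the libraries included, 15 of them listed at the start and 3, each without 1 ML library, chosen after seeing the data. Tables were handled with Python 3.11.15, numpy 2.4.6 and pandas 2.3.3, and plots drawn with matplotlib 3.10.9.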

Additional observations from a re-analysis of the deposited data

Results flagged for a closer look

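The day minus night difference was found to differ from that in ML for 3 genes, by the interaction term of the limma model. For HCP1 it was more negative in LL by 1.77 on the log2(FPKM + 1) scale (−1.77 ± 0.14), with mean night levels of 17.0 FPKM in LL and 4.61 in ML and mean day levels of 0.27 and 0.34. For PFR1 it was more negative in LL (−1.20 ± 0.17), with mean night levels of 35.0 and 22.1 FPKM and mean day levels of 1.61 and 1.67. The PFR1 means in LL and ML were 26.8 and 5.77 FPKM at −2, and 43.1 and 38.5 FPKM at −10. For ADH1 it was higher in HL (1.25 ± 0.14), with mean day levels of 202 FPKM in HL and 142 in ML and mean night levels of 133 and 127. The ADH1 means in HL and ML were 74.2 and 6.84 FPKM at +2, 263 and 247 at +6, and 268 and 172 at +10. These interactions use the same libraries as the differences at single timepoints and are not independent of them. The causes were not tested.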

How the results depend on the processing

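No member estimate changed sign among the 199 with an adjusted p below 0.01, of which 143 were called, in any of the 18 alternatives that fitted it. The day minus night counts stayed within 9 to 11 genes in each light level. Without a minimum fold change the calls became 17 for LL against ML, 9 for HL against ML, 5 for the LL interaction and 2 for the HL interaction. The share of all genes called without that minimum was not counted, so these counts cannot be set against all genes. HL against ML gave 2 calls with a pseudocount of 0.1, 3 with 0.01, and between 1 and 2 with any 1 replicate number omitted. Requiring a mean of at least 5 FPKM removed HCP1 and left 1 gene in the LL interaction. Median scaling moved the median of all genes in ML from −0.13 to 0.12 across dusk and from 0.02 to −0.21 between +6 and +10, and changed no member direction. With a replicate block the calls were 10 in each light level for day against night, 6 for LL and 1 for HL, and no call changed. A block for each culture cannot be used for LL or HL against ML at a timepoint, because each culture had 1 light level. Those comparisons were left out of that fit, which changed no call in the day minus night, step and interaction comparisons. Depth limits values below 1 FPKM.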
